A study of Mus musculus with 4 samples.

Results

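L6-Npy is 1 of 7 subtypes into which the authors divided the excitatory neurons of mouse ventromedial prefrontal cortex (vmPFC). All neurons that the deposited annotation assigns to this subtype were taken, which gave 1031 of 8210 neurons with a subtype and of 20047 annotated cells. They were joined by cell name to the unique molecular identifiers (UMIs) counted for each of 5 projection barcodes. A UMI is a random tag on a cDNA molecule, and PCR copies with the same tag count once. The name is the authors' own, and the level of Npy or of any other gene was not analysed here, so the label was not checked against markers. A second label in the annotation calls the same 1031 neurons L6-Oprk1 and no other neuron, and they make up 1 whole cluster of the deposited clustering.

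The libraries came from male C57BL/6 mice that were injected at 8 weeks of age with rAAV2-retro viruses expressing EGFP with a barcode. Each mouse received 1 barcode in each of 5 targets of 1 hemisphere, namely the agranular insular cortex (AI), the dorsomedial striatum (DMS), the mediodorsal thalamus (MD), the basolateral amygdala (BLA) and the lateral hypothalamus (LH). The prelimbic and infralimbic areas were dissociated 6 weeks later, without sorting from 3 mice, which are the replicates, and after FAC-sorting for EGFP from 3 other mice pooled, which gave 1 library with no replicate, called the sorted pool below. Every group carried all 5 viruses, no mouse without virus was among the samples, and volume and titre differed between the targets.

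In the cortex, layer 6 holds corticothalamic neurons, which send axons to the thalamus, and intratelencephalic neurons, whose axons stay within the cortex, striatum and amygdala. Npy encodes neuropeptide Y, a signalling peptide better known from inhibitory interneurons, and Syt6, after which the other layer 6 subtype is named, encodes a synaptotagmin. A retrograde virus enters axon terminals at the injection site and is carried back to the cell body, so a barcode in a neuron marks an axon at, or passing through, that site.

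The barcodes are shown because every projection value below is a count of molecules that carry 1 of these 15 bases. They are given as designed, with the positions that differ from the DMS barcode in capitals:
AI: CTGCAcCGaCGcAtt
DMS: gaaggcacagacttt
MD: gTTggcTGCAaTCCA
BLA: AaGACGCcGTCGCAA
LH: TaTTCGGAGgacGAC
The DMS barcode, in which nothing is capitalised, was the most frequent barcode of L6-Npy neurons. The other 4 differ from it at 10 to 13 positions, while up to 2 mismatches were allowed when reads were matched. The most frequent mismatched read in L6-Npy neurons was a DMS barcode with A9C, counted from 1 at its 5′ end, with 7041 reads. Counting exact matches alone left 368 of the 391 L6-Npy neurons with a valid barcode.

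L6-Npy neurons held 892796, 1450427 and 1556107 projectome reads in mice 1, 2 and 3 and 2435698 in the sorted pool. Over all recovered cells there were 2542, 4115, 4544 and 14639 reads per cell, so the sorted pool was the most deeply read. The share of L6-Npy reads that matched no barcode was 10.7%, 9.56% and 9.61% for mice 1, 2 and 3 and 19.8% for the sorted pool. Cell barcodes of 9 L6-Npy neurons also occurred in another library, in no case as an L6-Npy neuron. Among all 24788 cells of the barcode tables, 166 shared their cell barcode with a cell of another library. Differences within a library were tested over the 4 libraries with an exact two-sided sign-flip test, whose smallest p is 0.13, so no comparison could reach 0.05. The sorted pool could not be tested against the unsorted mice. All 95% intervals are exact binomial (Clopper-Pearson) intervals, and these and the limits of 3 counts given for a count of 0 cover counting error only.

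Over all libraries L6-Npy was, with 1031 neurons, the second largest of the 7 subtypes after L6-Syt6 with 4819, and L5-S100b held 954. The order of L6-Npy and L5-S100b was not the same in each library, since L5-S100b had more neurons in mouse 1 (294 against 265) and in the sorted pool (278 against 277) and fewer in mice 2 and 3 (191 in both). It made up 265 of 2440 neurons in mouse 1 (10.9%, 95% interval 9.65% to 12.2%), 239 of 2146 in mouse 2 (11.1%, 9.84% to 12.5%) and 250 of 2119 in mouse 3 (11.8%, 10.5% to 13.2%). In the sorted pool it made up 277 of 1505 neurons (18.4%, 16.5% to 20.5%). The unsorted mice lay close together at 11.3% ± 0.482 (SD, n = 3), and the interval of the FAC-sorted share did not overlap theirs. The sort selected EGFP-positive cells and came from other mice, and these cannot be told apart.

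L6-Npy neurons had fewer transcriptome UMIs than L6-Syt6 neurons at the median in every library. Their median transcriptome UMIs per neuron were 18712, 19762, 20799.5 and 25420 in mice 1, 2 and 3 and the sorted pool, beside 22221, 22553, 23708.5 and 35305 in L6-Syt6. On the log2 scale the difference in the medians was -0.25, -0.19, -0.19 and -0.47, with a mean of -0.28 ± 0.14 (SD, n = 4 libraries, exact sign-flip p = 0.13). Detected genes differed less, with medians of 5358, 5406, 5553.5 and 6258 in L6-Npy and a mean log2 difference of -0.08 (exact sign-flip p = 0.13). The mitochondrial share of UMIs was the reverse. Its median was 8.12%, 8.14%, 8.33% and 4.52% in L6-Npy and 5.91%, 5.91%, 5.92% and 2.76% in L6-Syt6, or 2.15 ± 0.282 percentage points higher (SD, n = 4 libraries, exact sign-flip p = 0.13). L5-Bcl6 came closest to it, with 8.13%, 8.23%, 7.96% and 4.38% in the same order. Between 2064 and 7779 genes were detected per L6-Npy neuron.

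Before any threshold was applied, every L6-Npy neuron held UMIs of the DMS barcode. The median count was 42, 54 and 60 DMS UMIs in mice 1, 2 and 3 and 85 in the sorted pool, and the highest counts were 266, 296, 303 and 548. These are the neurons left after the authors removed the cells with the highest barcode counts. Of the AI barcode, the medians were 6, 10, 11.5 and 11 UMIs, and at least 2 UMIs were found in 86.4%, 89.1%, 90.4% and 98.2% of the neurons. At least 2 UMIs is the lowest count that can be compared between the barcodes, because the tables list a single UMI of any barcode but AI as 0. The MD medians were 10, 17, 19 and 34 UMIs and the LH medians 10, 13, 13 and 22. BLA was the sparsest, with medians of 2, 4, 4 and 7 UMIs, and 57.7%, 73.6%, 74.4% and 93.9% of the neurons held at least 2 BLA UMIs. Mouse 1, which had the fewest reads per cell, was lowest for each of the 5 barcodes, and the sorted pool was highest for all but AI.

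Non-neuronal cells, in which a retrograde barcode should be rare, gave the background. Over all libraries, 84.7% of 9822 such cells held at least 2 DMS UMIs, 36.0% MD, 26.1% LH, 13.4% AI and 4.06% BLA, at a median of 4114 transcriptome UMIs against 20944 in L6-Npy. Their median count was 4 UMIs for DMS and 0 for the other 4 barcodes. A UMI of a barcode was therefore not read as a projection. The thresholds were those the authors applied, and a barcode was called valid above 28 UMIs (AI), 35 (BLA), 101 (DMS), 103 (LH) or 114 (MD). The authors took upper percentiles of 2 control sets, non-neuronal cells and FAC-sorted cells in which no EGFP RNA was detected. For each barcode they kept the higher value. Few non-neuronal cells could thus lie above it by construction: 4 of the 9822 did by their AI count, 5 by DMS, 4 by MD, 3 by LH and 0 by BLA. These numbers are no check of the background.

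**Figure D1:**
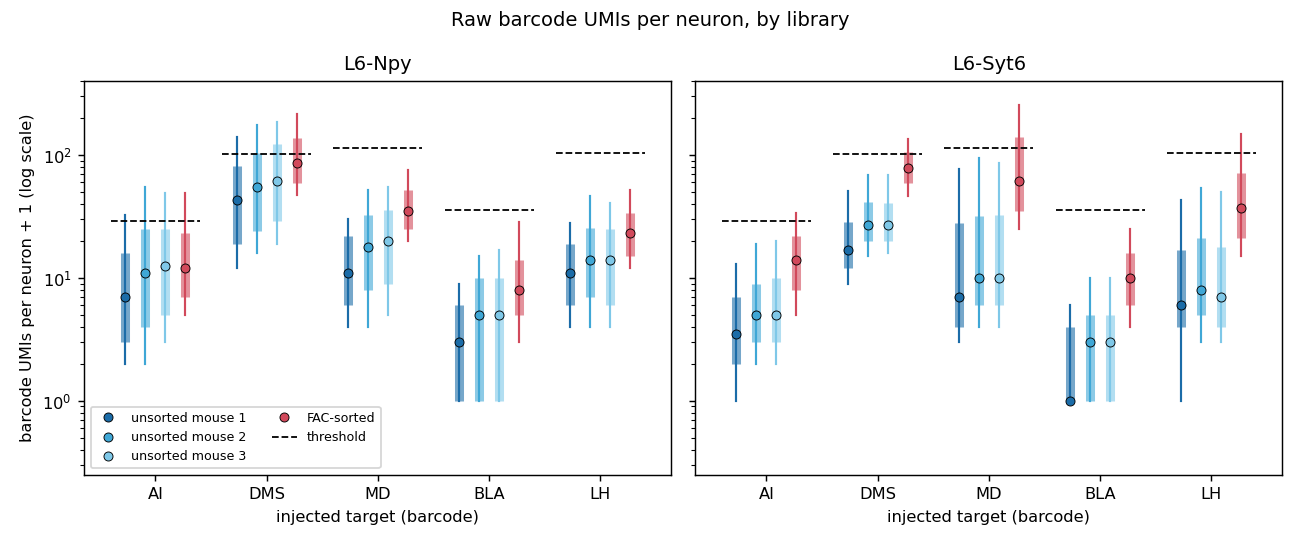
Barcode UMIs per neuron plus 1, on a log scale, for the 5 targets in L6-Npy (left) and L6-Syt6 (right). Circles are medians, thick bars run from the 25th to the 75th percentile, thin lines from the 10th to the 90th, and dashed lines are the thresholds. In L6-Npy the 90th percentile lies above the threshold for AI and DMS and below it for MD, BLA and LH in all 4 libraries.

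The DMS barcode made up the largest part of the barcode UMIs of L6-Npy in all 4 libraries. In L6-Npy, DMS took 56.3%, 51.2%, 54.6% and 52.5% of the barcode UMIs in mice 1, 2 and 3 and the sorted pool, beside 34.6%, 36.7%, 37.2% and 31.3% in L6-Syt6. MD took 13.8%, 15.4%, 16% and 19.2% in L6-Npy and 33.5%, 32.4%, 32.5% and 37.2% in L6-Syt6. The share of AI was 13.0%, 15.6%, 13.5% and 10.2% in L6-Npy and 6.68%, 7.07%, 7.78% and 5.90% in L6-Syt6. For each of these barcodes the 2 subtypes did not overlap over the libraries. DMS was nevertheless also the largest part in L6-Syt6 of the unsorted mice. The DMS part of L6-Npy was close to that of L5-S100b (55.3%, 54.4%, 52.2% and 53.2%) and of L2/3-Rorb (57.0%, 51.4%, 53.6% and 54.8%).

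Raw levels were compared between the subtypes as differences in log2(median + 1). For DMS the L6-Npy level was higher by 1.34, 1.03 and 1.18 in mice 1, 2 and 3 and by 0.14 in the sorted pool, with a mean of 0.92 ± 0.54 (SD, n = 4 libraries, exact sign-flip p = 0.13). For AI it was higher by 1.00, 1.14 and 1.32 in mice 1, 2 and 3 but was -0.22 after sorting (exact sign-flip p = 0.25). The thalamic and hypothalamic barcodes behaved in the same way. The MD level was higher in L6-Npy by 0.65, 0.85 and 1.00 in the unsorted mice and was -0.82 in the sorted pool (exact sign-flip p = 0.375). In the same order the LH difference was 0.87, 0.81, 1.00 and -0.69 and the BLA difference 1.58, 0.74, 0.74 and -0.32 (exact sign-flip p = 0.25 each). The medians of MD and LH in L6-Npy thus exceeded those of L6-Syt6 in the unsorted mice although few L6-Npy neurons passed these thresholds. Over the 4 libraries, the mean difference was 0.42 for MD and 0.50 for LH. In an alternative, a UMI seen with several barcodes of 1 cell was kept only for the barcode that had most of its reads, and dropped if tied. The means over the 4 libraries were then -0.40 for MD and -0.30 for LH. Under that rule the signs of these means, which include the sorted pool, thus turned.

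A valid barcode was found in 391 of 1031 L6-Npy neurons. These barcoded neurons were 77 of 265 in mouse 1 (29.1%, 95% interval 23.7% to 34.9%), 92 of 239 in mouse 2 (38.5%, 32.3% to 45.0%) and 91 of 250 in mouse 3 (36.4%, 30.4% to 42.7%). In the sorted pool they were 131 of 277 (47.3%, 41.3% to 53.4%). The unsorted mean was 34.7% ± 4.96 (SD, n = 3), and the FAC-sorted share lay above all 3 mice. Thresholds raised 1.5 times gave an unsorted mean of 20.9%, and counting only UMIs of at least 2 reads gave 11.9%. The place of the sorted pool changed when reads were thinned so that each library had 3009 to 3013 barcode-matched reads per L6-Npy neuron, where 29.1%, 28.5% and 26% were barcoded in mice 1, 2 and 3 and 25.6% in the sorted pool. As deposited these reads were 3009, 5489, 5626 and 7056 per neuron. This thinning was added after seeing the data.

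The striatum was the most frequent target. A valid DMS barcode was held by 46 of 265 L6-Npy neurons in mouse 1 (17.4%, 95% interval 13.0% to 22.5%), 61 of 239 in mouse 2 (25.5%, 20.1% to 31.5%), 75 of 250 in mouse 3 (30.0%, 24.4% to 36.1%) and 106 of 277 in the sorted pool (38.3%, 32.5% to 44.3%). The median DMS count of these neurons was 146.5, 153, 171 and 164 UMIs in the same order. The FAC-sorted share was the highest and that of mouse 1 the lowest, but this order was lost with reads thinned to equal numbers per L6-Npy neuron, where 46 of 265, 40 of 239 and 48 of 250 neurons of mice 1, 2 and 3 and 51 of 277 in the sorted pool held DMS.

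AI, a cortical target, came next. Valid AI barcodes were found in 32 L6-Npy neurons of mouse 1 (12.1%, 95% interval 8.41% to 16.6%), 51 of mouse 2 (21.3%, 16.3% to 27.1%), 52 of mouse 3 (20.8%, 15.9% to 26.4%) and 55 FAC-sorted neurons (19.9%, 15.3% to 25.0%). For AI, the sorted pool lay within the range of the unsorted mice, and with reads thinned in the same way 29 of its 277 neurons held AI, compared with 32 of 265, 32 of 239 and 30 of 250. The DMS share exceeded the AI share by 5.28, 4.18, 9.20 and 18.4 percentage points (mean 9.27 ± 6.46, SD, n = 4 libraries, exact sign-flip p = 0.13). This order was lost when only UMIs of at least 2 reads were counted under the same thresholds, where the mean difference was -0.553 points and 128 of 1031 neurons were barcoded.

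A valid barcode of BLA, the amygdalar target, was held by 8, 3 and 6 L6-Npy neurons of mice 1, 2 and 3 (3.02%, 1.26% and 2.40%) and by 16 FAC-sorted neurons (5.78%, 95% interval 3.34% to 9.21%). The unsorted mean was 2.22% ± 0.895 (SD, n = 3). AI exceeded BLA by 9.06, 20.1, 18.4 and 14.1 points and DMS exceeded BLA by 14.3, 24.3, 27.6 and 32.5 points (exact sign-flip p = 0.13 each). The order of AI and BLA depended on the thresholds. Leaving out the sorted control cells of the authors, lower thresholds were also taken for each barcode from the upper tail of the non-neuronal counts alone. They put BLA at 9 UMIs. With these, BLA barcodes were valid in 18.3% of the neurons of the unsorted mice on average and in 33.6% of the sorted pool. AI minus BLA was then 0.837 ± 7.05 points (SD, n = 4 libraries, exact sign-flip p = 0.75), with -8.66 in the sorted pool. Of the 33 valid BLA counts in all, 14 were more than 2 times the threshold, compared with 72 of 190 for AI and 77 of 288 for DMS.

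At the thresholds of the authors, few L6-Npy neurons had an MD or LH barcode. For MD, 0 of 265 L6-Npy neurons passed in mouse 1, which allows a share of up to 1.13%, 1 of 239 in mouse 2 (0.418%) and 0 of 250 in mouse 3, which allows up to 1.20%. In the sorted pool 9 of 277 passed (3.25%, 95% interval 1.5% to 6.08%). These 9 neurons held 331 to 901 barcode UMIs in all. The highest total of any L6-Npy neuron was 401, 485 and 509 UMIs in mice 1, 2 and 3. The authors had removed the cells with the highest barcode counts, and the totals left differed by library. What this removal did to the MD share was not tested. For LH the numbers were 0, 3 and 0 without sorting and 2 after it (0.722%, 0.0876% to 2.58%). These shares depended on the thresholds. The non-neuronal thresholds of 63 MD and 39 LH UMIs gave unsorted means of 4.06% for MD and 9.05% for LH, where the thresholds of the authors gave 0.139% and 0.418%, and the sorted pool then held 14.8% and 17%. None of the 10 valid MD counts and none of the 5 valid LH counts was more than 2 times the threshold.

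**Figure D2:**
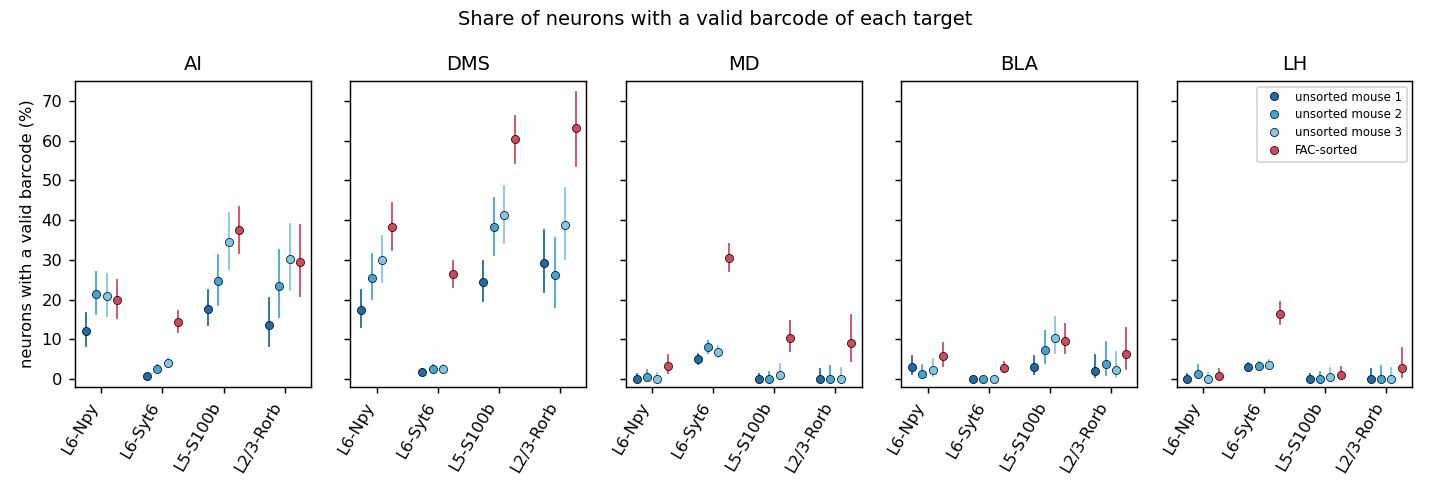
Percent of neurons with a valid barcode of each target, for L6-Npy and 3 other subtypes. Circles are libraries and lines are 95% binomial intervals. L6-Npy lies above L6-Syt6 for AI and DMS and below it for MD and LH in each library, and below L5-S100b for AI and DMS.

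Against L6-Syt6, the other layer 6 subtype, the direction depended on the target. The AI share was higher in L6-Npy by 11.3, 18.8, 16.8 and 5.51 percentage points in mice 1, 2 and 3 and the sorted pool (mean 13.1 ± 5.98). For DMS it was higher by 15.7, 22.9, 27.4 and 11.9 points (mean 19.5 ± 6.98), and for BLA by 3.02, 1.26, 2.25 and 2.93 points (mean 2.36 ± 0.816). The MD share was lower in L6-Npy, with differences of -4.98, -7.63, -6.77 and -27.3 points (mean -11.7 ± 10.5). So was the LH share, with -2.95, -1.99, -3.62 and -15.8 points (mean -6.09 ± 6.5). Each of these 5 differences had 1 sign in all 4 libraries, with an exact sign-flip p of 0.13 (SD, n = 4 libraries, adjusted over the 5 targets p = 0.13). For AI, DMS, MD and LH this held under every alternative over all 4 libraries. For BLA it did not, since the non-neuronal thresholds gave a mean of 5.54 points with -11.9 in the sorted pool (exact sign-flip p = 0.375). The sorted pool gave the largest differences for MD and LH and the smallest for AI and DMS. Its L6-Syt6 neurons had MD barcodes in 30.6% and LH barcodes in 16.5%, compared with 4.98% to 8.05% and 2.95% to 3.62% in the unsorted mice.

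L5-S100b and L2/3-Rorb are the subtypes whose targets were most like those of L6-Npy. Against L5-S100b, the AI share of L6-Npy differed by -5.61, -3.27, -13.8 and -17.6 points in the 4 libraries (mean -10.0 ± 6.73) and its DMS share by -7.13, -12.7, -11.4 and -22.2 points (mean -13.3 ± 6.34). For BLA the difference was -0.0424, -6.07, -8.07 and -3.94 points. Against L2/3-Rorb, the mean difference was -5.60 ± 4.43 points for AI and -11.6 ± 10.1 points for DMS, negative in all 4 libraries. These 5 differences had an exact sign-flip p of 0.13 (adjusted over 6 comparisons p = 0.15). Only those of DMS kept 1 sign in all 4 libraries under every alternative. The BLA difference from L5-S100b lost it under 4 of 10. BLA did not separate L6-Npy from L2/3-Rorb, with differences of 0.876, -2.48, 0.0190 and -0.646 points (exact sign-flip p = 0.75).

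The barcoded share placed L6-Npy in the middle of the 7 subtypes. It exceeded that of L6-Syt6 by 19.2, 26.3 and 25.7 percentage points in mice 1, 2 and 3 and by 2.10 in the sorted pool. The sign in the sorted pool turned with the thresholds: the difference there was -9.08 points with the non-neuronal thresholds, -0.618 with thresholds raised 1.5 times and -8.33 with the DMS threshold for all barcodes. It was -0.0787 with reads thinned to equal numbers per L6-Npy neuron. It exceeded that of L2/3-Calb1 by 19.3, 22.2, 20.6 and 5.19 points. It exceeded that of L5-Htr2c, in which 1 of 320 neurons was barcoded, by 22.3 to 38.5 points. The share of L6-Npy was lower than that of L5-S100b, with differences of -7.34, -10.2, -19.6 and -21.8 points, and lower than that of L2/3-Rorb, with -9.51, -1.69, -12.0 and -19.7 points. All of these had 1 sign in the 4 libraries (exact sign-flip p = 0.13, adjusted over 6 comparisons p = 0.15). Against L5-Bcl6 the differences were -0.943, 11.8, 9.73 and -7.71 points, and the libraries did not agree in sign (exact sign-flip p = 0.5).

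Read the other way, L6-Npy contributed about the same part of the AI and DMS neurons. Among all subtyped neurons with a valid AI barcode, 27.4%, 31.5%, 24.0% and 17.8% were L6-Npy in mice 1, 2 and 3 and the sorted pool. Of the DMS neurons, 23.7%, 28.2%, 29.1% and 18.5% were L6-Npy. Both exceeded the part of L6-Npy among all neurons in the unsorted mice, whereas in the sorted pool the 95% intervals of 13.7% to 22.5% and 15.4% to 21.9% held its share of 18.4%. Of the BLA neurons, 8 of 22, 3 of 25, 6 of 37 and 16 of 79 were L6-Npy. Of 561 MD neurons 10 were L6-Npy, and of 334 LH neurons 5.

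Among barcoded L6-Npy neurons most had 1 target. In all, 277 of 391 held 1 valid barcode and are called dedicated, 99 held 2, 10 held 3, 4 held 4 and 1 held 5. The collateral neurons, with more than 1, were 9 of 77 in mouse 1 (11.7%, 95% interval 5.49% to 21.0%), 25 of 92 in mouse 2 (27.2%, 18.4% to 37.4%), 40 of 91 in mouse 3 (44.0%, 33.6% to 54.8%) and 40 of 131 in the sorted pool (30.5%, 22.8% to 39.2%). The intervals of mouse 1 and mouse 3 did not overlap, and the unsorted mean of 27.6% had an SD of 16.1 (n = 3). The collateral share also depended on how UMIs were counted: it was 2.74%, 9.76%, 11% and 16% when each shared UMI was given to 1 barcode. Cells with the highest barcode counts had been removed by the authors. The highest total of an L6-Npy neuron was 401, 485 and 509 UMIs in mice 1, 2 and 3 and 901 in the sorted pool. Collateral neurons held a median of 330, 384, 374 and 477.5 barcode UMIs in the same order. What this removal did to the collateral share was not tested.

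In L6-Npy 14 of the possible sets of targets occurred among 391 barcoded neurons. There were 19 among 779 in L6-Syt6, 13 among 499 in L5-S100b and 11 among 231 in L2/3-Rorb. By library, L6-Npy had 5, 7 and 6 sets in mice 1, 2 and 3 and 11 in the sorted pool. Within L6-Npy, the sets differed in frequency. DMS alone was the most frequent, in 37, 36 and 36 neurons of mice 1, 2 and 3 and 66 FAC-sorted neurons, or 42.2% ± 5.03 of the barcoded neurons of the unsorted mice (SD, n = 3). AI alone was found in 24, 26, 15 and 19 neurons. DMS with AI was found in 8, 23, 34 and 25 neurons, which is 10.4%, 25.0%, 37.4% and 19.1% of the barcoded neurons. BLA alone was found in 7, 3, 0 and 6 neurons and DMS with BLA in 1, 0, 3 and 3. The only set of 3 targets with at least 5 neurons, DMS with AI and MD, was found in 0, 1, 0 and 4. The share of AI alone was higher in unsorted mice 1 and 2 than in mouse 3, and that of DMS with AI lower. Over all libraries the 3 leading patterns, DMS, DMS with AI and AI, held 175, 90 and 84 of the 391 barcoded neurons.

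**Figure D3:**
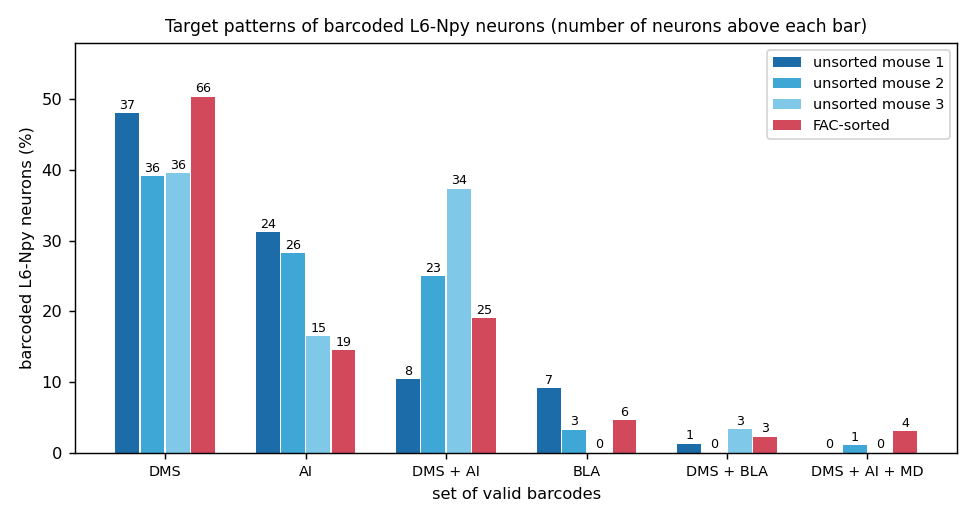
Percent of barcoded L6-Npy neurons with each of the 6 sets of valid barcodes that occurred in at least 5 neurons, by library. The number of neurons stands above each bar. DMS alone is the tallest set in each library, and DMS with AI ranges from 10.4% to 37.4%.

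L6-Npy had a lower collateral share than L5-S100b, with differences of -11.7, -14.8, -2.77 and -17.4 points (mean -11.6 ± 6.36, SD, n = 4 libraries), and than L2/3-Rorb, with -4.98, -5.38, -1.95 and -10.6 points (mean -5.72 ± 3.58). Both had an exact sign-flip p of 0.13 (adjusted over 3 comparisons p = 0.188). Against L2/3-Rorb the mean difference was 5.08 points with thresholds raised 1.5 times and 0.779 with each shared UMI given to 1 barcode, so its direction was not kept. Against L5-S100b it was 3.05 points with UMIs of at least 2 reads alone and 0.171 with reads thinned to 2542 per recovered cell. Against L6-Syt6 the difference was 6.72, 2.93 and 5.83 points in the unsorted mice and -21.3 in the sorted pool (exact sign-flip p = 1).

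Pairs of targets were compared with the number that independent barcodes would give among the L6-Npy neurons of a library. AI and DMS together were found in 8 neurons of mouse 1, where 5.55 were expected, 25 of mouse 2 (13.0 expected), 36 of mouse 3 (15.6 expected) and 36 FAC-sorted neurons (21.0 expected). The excess was 0.923, 5.01, 8.16 and 5.40 percentage points of all L6-Npy neurons (mean 4.87 ± 2.98, SD, n = 4 libraries, exact sign-flip p = 0.13, adjusted over 3 pairs p = 0.375). It was not particular to L6-Npy, since L6-Syt6, L5-S100b and L2/3-Rorb also lay above the expected number in all 4 libraries. The ratio of found to expected averaged 1.89 over the unsorted mice in L6-Npy, 15.9 in L6-Syt6, 1.74 in L5-S100b and 1.68 in L2/3-Rorb. It can rise where few neurons hold either barcode, as in L6-Syt6 of mouse 1, with 2 neurons found and 0.185 expected. In the sorted pool it was 3.47 in L6-Syt6 and 1.71 in L6-Npy. Over the unsorted mice, DMS among AI neurons averaged 38.4% in L6-Syt6 and 47.8% in L6-Npy, and AI among DMS neurons 43.1% and 35.5%. Among L6-Npy neurons with AI, 25.0%, 49.0%, 69.2% and 65.5% also held DMS, and among those with DMS 17.4%, 41.0%, 48.0% and 34.0% also held AI. DMS with BLA was found in 1, 0, 5 and 10 neurons where 1.39, 0.766, 1.80 and 6.12 were expected, and AI with BLA in 0, 0, 3 and 7 where 0.966, 0.640, 1.25 and 3.18 were. The share of AI among DMS neurons differed from that in L5-S100b by -14.6, -1.48, -10.2 and -16 points (mean -10.6 ± 6.54) and from that in L2/3-Rorb by -2.12, -1.87, -5.06 and -6.62 points (mean -3.92 ± 2.31), with an exact sign-flip p of 0.13 each (n = 4 libraries, adjusted over 4 comparisons p = 0.167). The share of DMS among AI neurons differed by -19.2, -16.9, -0.466 and -15.3 points from L5-S100b, with the same p, and by -17.1, 1.02, 0.81 and -22.0 points from L2/3-Rorb (exact sign-flip p = 0.5). Of these 4 differences, that of DMS among AI neurons from L5-S100b was the only one whose mean kept its direction under every alternative, and it had 1 sign in all 4 libraries under 3 of 10 alternatives. Neither of the BLA pairs had 1 sign over the libraries (exact sign-flip p = 0.5 each).

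The number of neurons with AI and DMS changed with the rule for UMIs shared between barcodes. Whether shared UMIs are errors was not tested. In L6-Npy neurons, 41.0%, 44.4%, 45.5% and 31.3% of the molecules of mice 1, 2 and 3 and the sorted pool had a UMI seen with more than 1 barcode in their cell. With each such UMI kept only where it had most of its reads, AI and DMS together were found in 2, 8, 7 and 17 neurons, where 3.91, 6.97, 7.01 and 12.5 were expected. The mean excess was then 0.332 percentage points (exact sign-flip p = 0.75), with mouse 1 below the expected number and mouse 3 at it (7 found, 7.01 expected). The valid AI neurons went from 190 to 116 under this rule and the DMS neurons from 288 to 266. The rule also dropped UMIs whose reads were tied between barcodes.

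**Figure D4:**
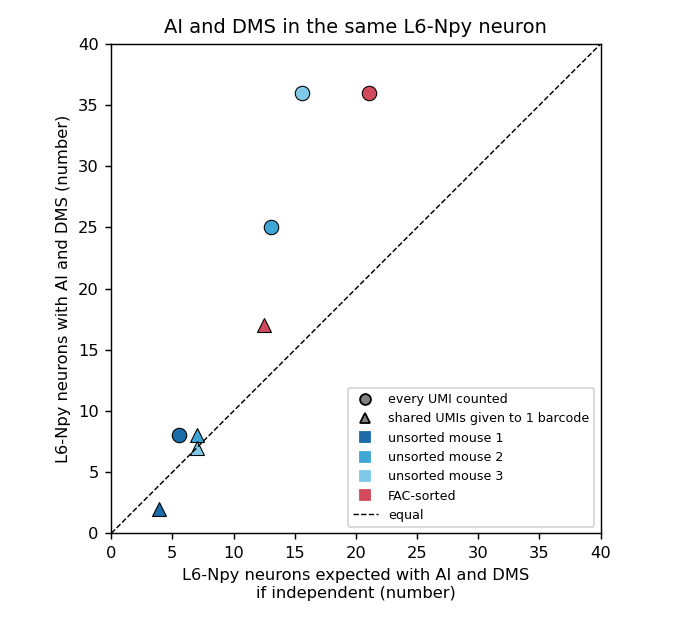
Number of L6-Npy neurons with valid AI and DMS barcodes against the number that independent barcodes would give, by library. Circles count every UMI. Triangles give each shared UMI to 1 barcode, or to none if its reads were tied. The dashed line marks equal numbers. All 4 circles lie above the line, up to 36 neurons with 15.6 expected, and the triangles lie near it, from 2 neurons with 3.91 expected to 17 with 12.5.

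The raw counts of neurons with 1 target were not clean of the other. In neurons with DMS alone, the median AI count was 16, 18.5, 20 and 16.5 UMIs in mice 1, 2 and 3 and the sorted pool, compared with 4, 4, 5 and 7 in neurons without a target. Over all libraries, 124 of these 175 neurons had an AI count above 50% of its threshold, compared with 66 of the 640 neurons without a target. In neurons with AI alone, the median DMS count was 61, 55.5, 59 and 80 UMIs, and 59 of 84 exceeded 50% of the DMS threshold. Neurons without a target had median DMS counts of 27, 28, 34 and 60.5 UMIs, and 257 of the 640 exceeded that level, among them 107 of the 146 in the sorted pool.

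Across L6-Npy neurons, the counts of the 5 barcodes moved together. Spearman's rho between DMS and LH was 0.881, 0.894, 0.916 and 0.848 in mice 1, 2 and 3 and the sorted pool, and between AI and DMS it was 0.712, 0.756, 0.787 and 0.720. It stayed at 0.868, 0.897, 0.907 and 0.818 for DMS and LH when each count was divided by the transcriptome UMIs of the neuron. In L6-Syt6 neurons, rho between DMS and LH was 0.759, 0.752, 0.747 and 0.724. In non-neuronal cells of the same libraries it was 0.262, 0.317, 0.301 and 0.463. The median LH count of these cells was 0 in the unsorted mice, and the sorted pool held 73 of them, which limits this comparison. The L6-Npy values are descriptions across 239 to 277 neurons a library, which share a library and its reads.

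The few L6-Npy neurons with an MD barcode all held others as well, whereas 2 of the 5 with an LH barcode held no other. All 10 MD neurons also had a valid DMS barcode, 9 also had AI, and 9 held at least 3 targets. This was not particular to L6-Npy. All 31 MD neurons of L5-S100b also had DMS and 27 had AI, and all 10 of L2/3-Rorb had DMS and AI. In L6-Syt6, 169 of 494 MD neurons had DMS and 151 had AI. The MD counts of the 10 L6-Npy neurons ran from 115 to 213 UMIs with a median of 137, beside a threshold of 114. The one with the most MD UMIs, in the sorted pool, held 164 AI, 234 DMS, 213 MD, 30 BLA and 96 LH UMIs. The only MD neuron of the unsorted mice held 36, 140, 145, 13 and 50 UMIs in the same order. Of the 5 LH neurons, 3 held at least 3 targets and 2, both in mouse 2, held LH alone, with 122 and 115 LH UMIs. These were shallow neurons, with 14839 and 14345 transcriptome UMIs. With each shared UMI given to 1 barcode, 2 MD neurons and 3 LH neurons were left.

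Barcoded L6-Npy neurons had more transcriptome UMIs than those without a valid barcode. Their median transcriptome UMIs were 20114, 20142, 21288 and 27237 in mice 1, 2 and 3 and the sorted pool, compared with 18359.5, 19141, 20404 and 24499.5. The log2 difference was 0.13, 0.07, 0.06 and 0.15 (mean 0.10 ± 0.04, SD, n = 4 libraries, exact sign-flip p = 0.13). The neurons of each library were divided by transcriptome UMIs into 3 bins of equal size. In the lowest bin 22.5%, 35.0%, 28.6% and 38.7% were barcoded, compared with 41.4%, 45.0%, 48.2% and 67.4% in the highest. The middle bin held 23.6%, 35.4%, 32.5% and 35.9%, closer to the lowest bin than to the highest in every library. The valid AI share was 8.99%, 8.75%, 13.1% and 14% in the lowest bin of mice 1, 2 and 3 and the sorted pool and 19.5%, 35.0%, 31.3% and 35.9% in the highest. The DMS share was 12.4%, 26.2%, 26.2% and 28.0% in the lowest bin and 24.1%, 25.0%, 38.6% and 56.5% in the highest. Both were thus higher in the highest bin, apart from DMS in mouse 2.

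**Figure D5:**
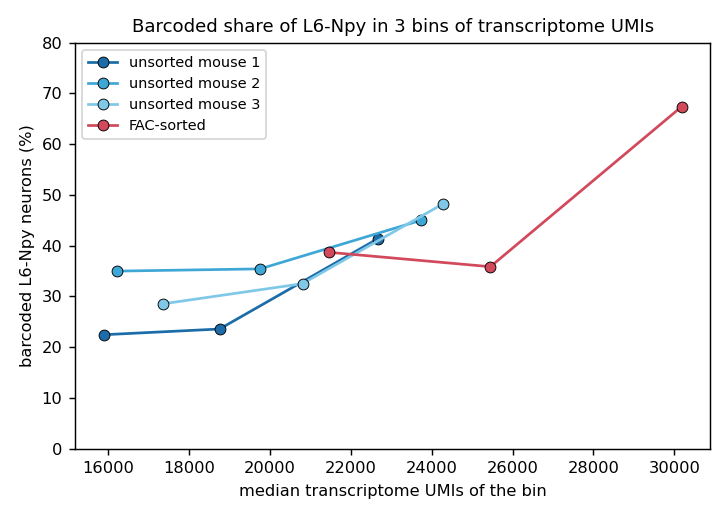
Percent of L6-Npy neurons with a valid barcode in the lowest, middle and highest of 3 bins of transcriptome UMIs in each library, plotted at the median UMIs of the bin. The highest bin lies above the others in all 4 libraries, from 41.4% to 67.4%.

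At the level of molecules, L6-Npy neurons held 27968, 34524, 38158 and 60228 combinations of cell, barcode and UMI in mice 1, 2 and 3 and the sorted pool. Each had on average 28.5, 38.0, 36.9 and 32.4 reads, but 59.5%, 56.8%, 55.6% and 57.5% had a single read. In L6-Syt6 the average was 25.6, 32.5, 30.9 and 40.4 reads, so the unsorted mice had more reads per molecule in L6-Npy and the sorted pool fewer (mean log2 difference 0.08 ± 0.27, SD, n = 4 libraries, exact sign-flip p = 0.625). Molecules with a shared UMI were more frequent in L6-Npy than in L6-Syt6 by 2.51, 7.03 and 6.52 points in the unsorted mice, and the difference was -1.12 points in the pool (exact sign-flip p = 0.25).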

How the data were processed

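The deposited read tables list 1 projectome read per line for the recovered cells. Per the methods, the authors assigned them with a modified deMULTIplex package at a minimal Hamming distance of 2, while a figure legend speaks of perfect matches. UMIs were counted without normalization, so the deposited barcode tables hold raw counts. The annotation holds counts of transcriptome UMIs and genes and the percent of UMIs from mitochondrial genes, both from the authors, who aligned the transcriptome with Cell Ranger to mm10. They also removed the cells with the highest barcode counts, which have no subtype, and cells beyond limits on genes and UMIs, and no doublet caller was run here. Another 22 deposited columns were not used, among them coordinates of embeddings.

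A recount from the reads, with up to 2 mismatches allowed, differed from the tables in 0 of 123940 entries, with a single UMI of any barcode but AI listed as 0. Each threshold was read from the deposited joined matrix as the largest count set to 0, and the resulting calls matched the deposited calls per target with 0 differences. Levels were compared as log2(median + 1). The members, lists and comparisons were chosen with earlier results of these data known. No gene was tested, and all 5 targets, every pattern of at least 5 L6-Npy neurons and all 7 subtypes were named where they bear on L6-Npy. Differences were taken within each library, tested over the 4 libraries by exact two-sided sign flips and adjusted within each family (Benjamini-Hochberg). There were 15 alternatives, 1 of them (reads thinned per L6-Npy neuron) chosen after seeing the data, covering thresholds, mismatches, UMIs, read depth, deep neurons, weighting by depth, scaling and libraries left out. On simulated reads and neurons, the code returned 9 of 9 quantities to within 0.05 or 5 percent, whichever was larger. The software was Python 3.11.15, with numpy 2.4.6, pandas 2.3.3 and scipy 1.17.1, pyarrow 21.0.0 and matplotlib 3.10.9.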

Additional observations from a re-analysis of the deposited data

Results flagged for a closer look

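For 4 raw barcode levels the sorted pool went the opposite way to all 3 unsorted mice. The difference between L6-Npy and L6-Syt6 in log2(median + 1) was -0.22 (AI), -0.82 (MD), -0.32 (BLA) and -0.69 (LH) in the sorted pool, whereas in the unsorted mice it was positive, at 1.00 to 1.32 (AI), 0.65 to 1.00 (MD), 0.74 to 1.58 (BLA) and 0.81 to 1.00 (LH). The same held for the collateral share, which was lower in L6-Npy than in L6-Syt6 in the sorted pool (-21.3 percentage points) and higher in the unsorted mice (2.93 to 6.72), for the log2 of reads per molecule (-0.32 against 0.15 to 0.25), and for the percent of molecules with a shared UMI (-1.12 points against 2.51 to 7.03). With 1 sorted library the difference between the groups was not tested in any of these.

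Another deposited column calls neurons barcoded by a rule that the sources used here do not give. It marks 593 of the 1031 L6-Npy neurons, including all 391 with a count above a threshold and 202 without one. These 202 were 40, 41 and 43 neurons in mice 1, 2 and 3 and 78 in the sorted pool. For 186 of them the barcode closest to its threshold was DMS, for 14 AI and for 2 BLA. The highest count in relation to its threshold was 59.4% to 100% in these neurons, with a median of 74.8%, and it was 27.7% at the median in the 438 neurons that the column does not mark.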

How the results depend on the processing

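No exact sign-flip test could pass the threshold, so the alternatives are read by the direction of the mean over the libraries. Of 514 alternative values for 41 differences, 469 kept the direction and 45 did not, and 27 differences kept it throughout. Among these were the differences from L6-Syt6 in transcriptome UMIs, in the barcoded share and in the valid share of all 5 targets. The lower AI and DMS shares than in L5-S100b and L2/3-Rorb were also among them. A mean can keep its direction while a library turns. Of 29 differences with 1 sign in all 4 libraries, 15 had it under every alternative over all 4, and of such values 193 had it and 63 lost it. In the sorted pool the barcoded share against L6-Syt6 turned to -9.08 (non-neuronal thresholds), -0.618 (raised 1.5 times), -8.33 (DMS threshold for all) and -0.0787 (reads thinned per L6-Npy neuron), BLA against L6-Syt6 to -11.9 and AI minus BLA to -8.66 (both non-neuronal thresholds). The AI share against L5-S100b lost its single sign under 5 of 10 alternatives and against L2/3-Rorb under 2, and the BLA share against L5-S100b under 4. The mean excess of AI with DMS stayed positive and ran from 7.27 to 0.332 points, but its single sign over the libraries was lost under 3 of 9 alternatives. The cause of a change was not tested. The number of neurons limits MD and LH, since 0 neurons in 1 library allow a share of up to 1.08% to 1.26%. No paired analysis was possible because the sorted library pools other mice, and no mouse is in both groups. Weighting by depth leaves the values of L6-Npy itself as they are.

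With thresholds from the upper tail of the non-neuronal counts (23 AI, 82 DMS, 63 MD, 9 BLA and 39 LH UMIs), the unsorted means were 41.7% barcoded, 31.2% DMS, 4.06% MD, 18.3% BLA, 9.05% LH and 49.8% collateral. The barcoded share against L5-Bcl6 was -9.00 points and the collateral share against L6-Syt6 4.68. Raised 1.5 times, the thresholds gave 20.9% barcoded, 10.2% AI and 12.6% DMS, and differences of 0.0842 points in BLA against L2/3-Rorb, 10.5 and 5.08 in the collateral share against L6-Syt6 and L2/3-Rorb, and 6.53 (AI among DMS neurons) and 5.03 (DMS among AI neurons) against L2/3-Rorb. At the DMS threshold for all barcodes, 26.6% were barcoded, 3.23% AI, 0.511% BLA and 7.46% collateral. The barcoded share against L5-Bcl6 was -5.43, AI among DMS neurons against L5-S100b 0.579 and DMS among AI neurons against L2/3-Rorb 1.10.

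Counting only UMIs of at least 2 reads gave 11.9% barcoded, 6.57% AI, 5.23% DMS, 0.923% BLA and 6.25% collateral. DMS minus AI was -0.553 and the raw BLA difference from L6-Syt6 -0.10. The collateral share was 2.74, 3.05 and 6.62 points above L6-Syt6, L5-S100b and L2/3-Rorb. AI among DMS neurons was 4.84 above L5-S100b and 8.66 above L2/3-Rorb, and DMS among AI neurons 7.99 above L2/3-Rorb. With each shared UMI kept for 1 barcode, 10.8% were AI and 7.83% collateral. Raw differences from L6-Syt6 were -0.40 (MD), 0 (BLA) and -0.30 (LH). BLA against L2/3-Rorb was 0.141, the collateral share 5.12 above L6-Syt6 and 0.779 above L2/3-Rorb, the excess of DMS with BLA -0.0968 and of AI with BLA -0.0851, and AI among DMS neurons 1.68 above L2/3-Rorb.

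With reads thinned to 2542 per recovered cell, 27.7% were barcoded, but this left 3009, 3395 and 3146 matched reads per L6-Npy neuron in the unsorted mice and 1224 in the sorted pool. The collateral share was 9.22, 0.171 and 6.18 points above L6-Syt6, L5-S100b and L2/3-Rorb, the excess of AI with BLA -0.0245, AI among DMS neurons 1.79 and 6.84 above L5-S100b and L2/3-Rorb, and DMS among AI neurons 4.85 above L2/3-Rorb. With reads thinned to equal numbers per L6-Npy neuron, an alternative chosen after seeing the data, 27.8% were barcoded, 12.5% AI and 17.8% DMS. BLA against L2/3-Rorb was 0.389, the collateral share 6.77 above L6-Syt6 and 4.82 above L2/3-Rorb, the excess of AI with BLA -0.00969, and AI among DMS neurons 5.54 and DMS among AI neurons 0.738 above L2/3-Rorb. Without the deepest neurons, L6-Npy was 12.1% of neurons and the collateral share 0.674 above L6-Syt6. Weighted to the depth of L6-Npy, BLA against L2/3-Rorb was 0.574 and the collateral share 3.64 above L6-Syt6. With 1 library left out, BLA against L2/3-Rorb ran from -1.04 to 0.0831, the latter without mouse 2, and the collateral share against L6-Syt6 from -4.17 to 5.16, the latter without the sorted pool. Exact matches and scaling to 10000 transcriptome UMIs turned no direction.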
